A study of Mus musculus with 4 samples.

Results

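Interferon-positive fibroblasts are the fibroblasts of a mouse spermatogonial culture in which at least 3 unique molecular identifiers (UMIs, each standing for a captured RNA molecule) came from Ifit1, Ifit3, Isg15 and Cxcl10 together. There were 284 such cells among 7719 fibroblasts and 24278 deposited cell barcodes. They were selected on the counts of these 4 genes, so the levels of the 4 genes are a description and carry no test. The same rule asked for more than 400 and fewer than 4000 genes and under 10% mitochondrial UMIs (23207 barcodes), for at least 2 UMIs of Col1a1, Col1a2, Sparc and Dcn together and more of these than of the germ cell genes Dazl, Tex15, Stk31 and Epcam, for under 1% of UMIs from Mt1 and Mt2, under 8% from Malat1 and Neat1, and under 3 UMIs from 8 cell cycle genes. These limits left 4964 fibroblasts. Of these, 3573 had no UMI of the 4 genes and form the comparison fibroblasts, and 1107 had 1 or 2 UMIs and lie between the populations.

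Each culture held Thy1-selected spermatogonia of 3 male mice killed at postnatal day 6, grown on STO cells, a line derived from mouse embryonic fibroblasts. For 3 days the medium carried either PBS (vehicle) or 1 µg/ml of extracellular vesicles (EVs) prepared from postnatal day 7 testis. Each arm has 2 libraries by its labels. Counts of vehicle 1, vehicle 2 and EV 1 were used, and EV 2 entered with 6794 barcodes only, its expression not analysed here. The EV arm therefore rests on 1 library and no test between the arms was made. The 3 libraries held 23686047, 27444797 and 10793232 UMIs. Between libraries at most 22 barcodes were shared, and 2 barcodes of interferon-positive cells of vehicle 2 also occurred in EV 1. The labels do not say which fibroblasts came from the STO layer and which from the testis, so "feeder" is the label of the culture and was not tested per cell.

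Cells that meet viral nucleic acid, or damaged or misplaced nucleic acid of their own, sense it through receptors such as RIG-I (Ddx58), MDA5 (Ifih1) and the DNA-binding proteins of the HIN-200 family, and can release type I interferon. Interferon binds its receptor on the same or on neighbouring cells, and the kinases JAK1 and TYK2 pass the signal to a complex that includes STAT2 and IRF9 and binds the interferon-stimulated response element (ISRE) in front of interferon-stimulated genes. Ifit1 and Ifit3 encode proteins that bind foreign RNA, Isg15 a ubiquitin-like modifier, and Cxcl10 a chemokine that attracts lymphocytes. Fibroblasts are a classical cell type in which this response was described.

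The ISRE core was looked for in the RefSeq promoter windows of GRCm38.p6, which run from 250 bases before to 50 bases after each start, because the genes described below share a known regulator. The letters searched were GAAANNGAAA, or TTTCNNTTTC for the other strand, and overlapping matches were counted. They were present in 3.44% of 32851 windows and, by gene, in 3.99% of 27025 genes. All 4 genes of the rule held them. The stretches below are upstream of the start, 5′ to 3′ on the strand of the gene, with the core in capitals.
Isg15 (chr4:156200865-156200918, minus strand): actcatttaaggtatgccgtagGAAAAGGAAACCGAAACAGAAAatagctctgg
Ifit1 (chr19:34640763-34640816, plus strand): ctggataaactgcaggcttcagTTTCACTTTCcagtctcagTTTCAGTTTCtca
Ifit3 (chr19:34583351-34583404, plus strand): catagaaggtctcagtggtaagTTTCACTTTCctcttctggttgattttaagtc
Cxcl10 (chr5:92349071-92349124, minus strand): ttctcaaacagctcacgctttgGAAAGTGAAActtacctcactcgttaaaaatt
The stretch of Isg15 held 3 overlapping cores, that of Ifit1 held 2, and those of Ifit3 and Cxcl10 held 1 each. Promoters of genes outside the rule are given with their results.

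Isg15 was the leading gene of the interferon-positive cells, with 952 of their 2041 UMIs of the 4 genes (46.6%), seen in 271 of 284 cells. Ifit1 gave 604 UMIs in 195 cells and Ifit3 gave 295 UMIs in 119 cells. Cxcl10 was the most uneven, with 190 UMIs in 44 cells (15.5%) and up to 49 UMIs in 1 cell. By library, Isg15 stood at 627, 607 and 551 counts per 1000000 UMIs (CPM) in the interferon-positive cells of vehicle 1, vehicle 2 and EV 1, Ifit1 at 399, 379 and 463 CPM, Ifit3 at 249, 152 and 88.1 CPM, and Cxcl10 at 138, 109 and 154 CPM.

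**Figure D1:**
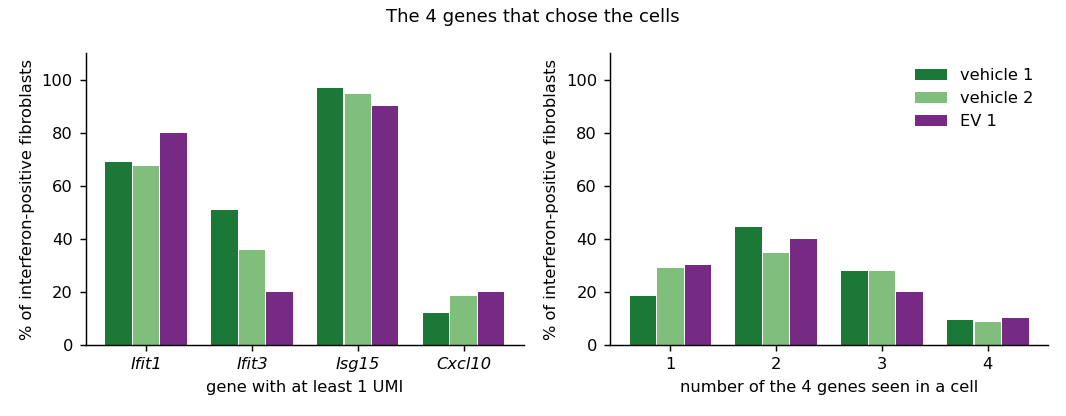
Left, percent of interferon-positive fibroblasts with at least 1 UMI of each of the 4 genes of the rule, and right, percent by how many of the 4 genes a cell showed, with a bar for each library (126 cells in vehicle 1, 148 in vehicle 2 and 10 in EV 1). Isg15 was seen in 96.8%, 94.6% and 90% of cells and Cxcl10 in 11.9%, 18.2% and 20.0%.

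Most interferon-positive cells sat close to the threshold. Exactly 3 UMIs were found in 107 cells, 5 or more in 129, 10 or more in 55 and 20 or more in 16, with a median of 4 and a maximum of 133. The 29 cells with the highest counts held 37.7% of the UMIs of the 4 genes. A single gene carried the choice in 69 cells, of which 63 rested on Isg15 and 6 on Ifit1, whereas all 4 genes were seen in 26 cells. Interferon-positive cells were also deeper than the comparison fibroblasts, with medians of 4628.5, 5558.5 and 4099.5 UMIs per cell against 3399, 3755.5 and 2558.5. The fit described below was therefore repeated with comparison cells of matched depth.

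Interferon-positive cells made up 6.80% of the fibroblasts within the limits in vehicle 1 (126 of 1852, 95% Wilson interval 5.74 to 8.04), 7.47% in vehicle 2 (148 of 1981, 6.39 to 8.71) and 0.884% in EV 1 (10 of 1131, 0.481 to 1.62). The EV 1 share was 6.25 percentage points below the vehicle mean of 7.14% ± 0.472 (SD, n = 2), or 8.07 times lower, while the vehicle libraries differed by 0.668 points. The fold depended on the minimum, at 4.13 times with 2 UMIs and 12.4 times with 5, and was 15.5 times with thinned cells, where EV 1 had 1 cell. The EV 1 interval did not overlap those of the vehicle libraries. With each cell thinned to 1000 UMIs, which left out 46, 19 and 59 shallower cells, 1.66%, 1.22% and 0.0933% (1 cell) still had 3 UMIs, and 12.02%, 11.7% and 4.94% had at least 1. EV 1 remained below both vehicle libraries at equal depth. Intervals cover counting error only, and with 1 EV library the arm and the library cannot be told apart.

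Free RNA in droplets was gauged in the germ-positive barcodes. At the cells' own depth, 3.07%, 2.94% and 2.07% of them had at least 1 UMI of the 4 genes, against 32.3%, 34.0% and 10.5% of the fibroblasts, at median depths of 1973.5, 2136 and 1332 UMIs in germ-positive barcodes. Thinned to 1000 UMIs, the germ-positive share was 1.40%, 1.495% and 1.57%, and so lay below that of the fibroblasts in every library. At least 3 UMIs were found in 0 of 4854, 4 of 5264 and 0 of 242 germ-positive barcodes, where 0 counts allow shares of up to 0.0618% and 1.24%. Another 13, 10 and 9 barcodes with 3 or more UMIs were in neither class.

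**Figure D2:**
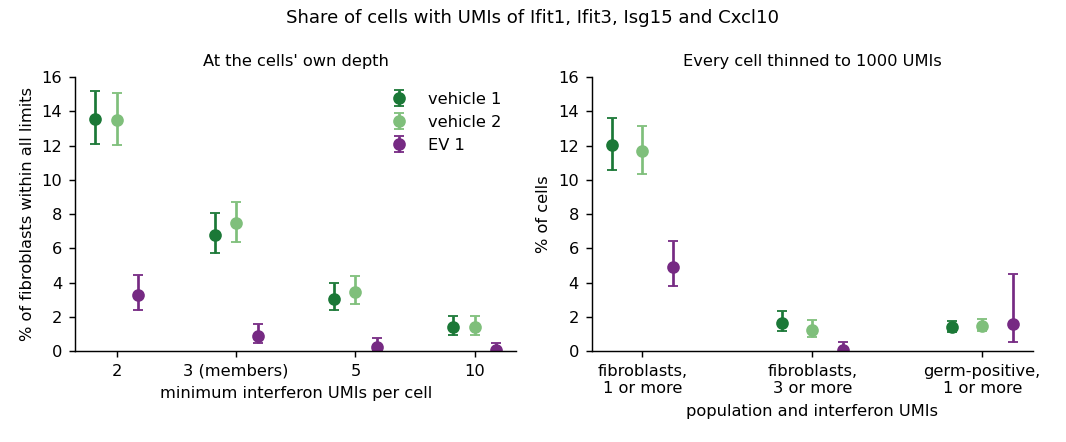
Share of cells with UMIs of Ifit1, Ifit3, Isg15 and Cxcl10, as points with 95% Wilson intervals for each library. Left, fibroblasts within all limits by the minimum number of UMIs, and right, cells thinned to 1000 UMIs. EV 1 lay below both vehicle libraries among fibroblasts, and all 3 libraries overlapped among germ-positive barcodes.

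Outside the rule, other interferon-stimulated genes were higher in the interferon-positive cells than in the comparison fibroblasts. UMIs were summed per library and population and tested with edgeR's quasi-likelihood test with a term for the library (3 libraries, 2 populations each) over 10235 genes that the rule did not use. At an adjusted p under 0.05, 67 genes were higher (0.655% of those tested) and 15 were lower (0.147%). DESeq2 called 26 higher and 0 lower genes (176 at an unadjusted p under 0.05), edgeR without the library term 29 and 0 (641), and edgeR on cells thinned to 1000 UMIs 13 and 0 (269). Of the 67, 48 were in lists of interferon-stimulated genes and 2 were chemokines. The direction was the same in all 3 libraries for 55 of the 67 and 13 of the 15. The genes were called on these libraries, and the share with 1 direction over all tested genes is not given. In EV 1, 1 UMI is worth 22.03 CPM, and the direction there rested on 1 UMI for Zbp1, Oasl1, Irgm2 and Iigp1. The numbers of called genes moved with the libraries used. Leaving out vehicle 1 gave 30 higher and 0 lower genes, leaving out vehicle 2 gave 19 and 4, and leaving out EV 1, with its 10 cells, gave 168 and 43, with 57 of the 168 in the interferon lists. With a minimum of 2 UMIs, 407 genes were higher, 59 of them in these lists. Without a library each time, the direction of the 67 was kept by all that were tested, 66, 67 and 67. These fits share libraries with the fit that called the genes, so the kept direction is no independent support.

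Genes were ranked among those called with 1 direction in all libraries and at least 50 UMIs over both populations. The 10 with the largest differences included antiviral effectors, sensors, GTPases, a chemokine and Usp18. Ifit3b, a close relative of Ifit3 next to it on chromosome 19, stood at 99.4, 92.9 and 44.1 CPM in interferon-positive cells against 3.80, 5.59 and 1.39 CPM in comparison cells. The fitted log2 difference was 4.41 ± 0.25 (SE, edgeR adjusted p = 7.1e-65). Because the upstream stretch printed for Ifit3 was identical to that of Ifit3b in 54 of 54 bases, and the genes are near copies, reads may have been divided between Ifit3b and the rule gene Ifit3, so this value is uncertain and is not independent of the rule.
Ifit3b (chr19:34607747-34607800, plus strand): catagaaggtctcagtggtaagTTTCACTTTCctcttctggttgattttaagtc

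Ifi44, an interferon-induced cytoplasmic protein, was at 71.4, 72.0 and 66.1 CPM against 8.44, 7.83 and 6.62 CPM. Its log2 difference of 3.21 ± 0.25 (SE, edgeR adjusted p = 3.1e-35) was close in all libraries. Usp18, which removes ISG15 from proteins and restrains the interferon receptor, was at 79.2, 94.0 and 66.1 CPM against 10.6, 12.7 and 10.4 CPM (log2 difference 2.95 ± 0.21, edgeR adjusted p = 1.1e-39). Usp18 was seen in 33.5% of interferon-positive and 4.03% of comparison cells. Oasl2, a member of the oligoadenylate synthetase family, was at 146, 131 and 198 CPM against 27.9, 21.6 and 13.2 CPM (2.65 ± 0.17, edgeR adjusted p = 3.2e-48), and its neighbour Oasl1 was at 18.6, 12.8 and 22.03 against 2.95, 2.61 and 3.13 CPM (2.54 ± 0.54, edgeR adjusted p = 0.00081). Oasl1 had 1 UMI in EV 1 and lost its call without vehicle 1 (adjusted p = 1) and without vehicle 2 (adjusted p = 0.87). The populations did not overlap in CPM for these 4 genes. The genes were picked for large differences in 1 direction, so this adds no support. The share of all tested genes without overlap is not given.

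Among the sensors, Ddx60, a helicase that assists RIG-I, was at 37.3, 20.9 and 66.1 CPM against 2.53, 2.80 and 1.74 CPM (log2 difference 3.61 ± 0.45, edgeR adjusted p = 8.2e-13). Zbp1, a receptor for left-handed nucleic acid, was at 9.32, 26.7 and 22.03 CPM against 2.53, 1.68 and 0.697 CPM (3.28 ± 0.55, edgeR adjusted p = 1e-06). Both rested on few molecules, 45 and 30 UMIs in all interferon-positive cells. At the comparison levels both were too low for the test, as were Oasl1 and Irgm2. These genes entered it through the interferon-positive cells, so their p-values are no independent support. Zbp1 passed the test only with vehicle 2 in the fit (log2 difference 2.21, adjusted p = 1 without it). RIG-I itself, Ddx58, was 0.76 ± 0.18 log2 units higher (edgeR adjusted p = 0.0033), and Ifih1 was too low for the test, with 5 UMIs in interferon-positive cells.
Ddx60 (chr8:61928012-61928065, plus strand): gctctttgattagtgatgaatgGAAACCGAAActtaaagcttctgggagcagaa

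Ccl5, a chemokine for T cells and monocytes, was higher by 2.99 ± 0.16 log2 units (edgeR adjusted p = 6.3e-73), but its size varied between libraries. In vehicle 1, vehicle 2 and EV 1 it was at 115, 238 and 352 CPM in interferon-positive cells. Comparison cells were at 34.0, 20.7 and 8.01 CPM. Ccl5 came from 54 of the 284 cells, and the 5 cells with the most Ccl5 held 58.1% of its UMIs in vehicle 1 and 50.7% in vehicle 2. Without the single highest cell of each library the levels were 95.4, 195 and 215 CPM. It was seen in 20 of the 44 cells with Cxcl10 and in 34 of the 240 without it (45.5% against 14.2%). Ccl7 was also higher (0.79 ± 0.14, edgeR adjusted p = 2.3e-06) at 528 and 538 against 341 and 300 CPM in the vehicle libraries, but not in EV 1 (66.1 against 78.7 CPM). Ccl2, the most abundant chemokine, was at 2053, 2026 and 1454 CPM against 1529, 1420 and 997 CPM and did not pass the test (0.49 ± 0.18, edgeR adjusted p = 0.28).

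**Figure D3:**
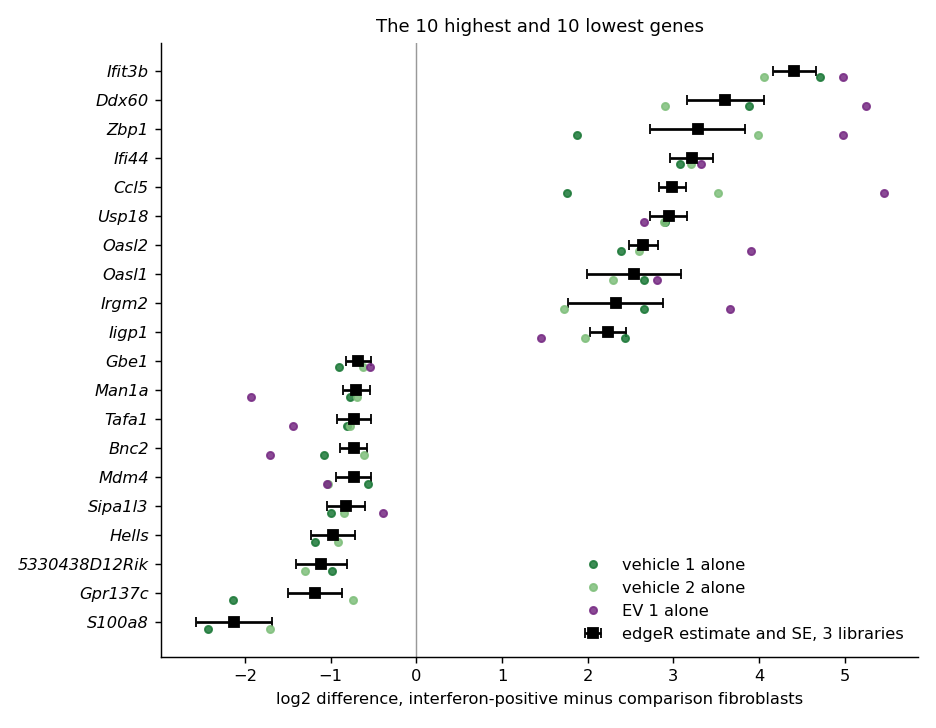
Log2 difference between interferon-positive and comparison fibroblasts for the 10 highest and 10 lowest genes. They were ranked among called genes with the same direction in all libraries and at least 50 UMIs over both populations. Squares and bars are the edgeR estimate and its SE over 3 libraries, circles the ratio of CPM within a library (no circle where the interferon-positive cells of EV 1 had 0 UMIs). The 10 highest lay between 2.24 and 4.41 and the 10 lowest between -2.13 and -0.68.

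By role, the share of higher genes was largest for the interferon-inducible GTPases and ISG15 conjugation, followed by the antiviral effectors. Over all interferon lists, 48 of the 106 genes that passed the filter on low counts were higher (45.3%) and 0 lower, with a median log2 difference of 0.79, against -0.02 over all genes tested. DESeq2 called 22 of them, with 11 of the 23 effectors, 4 of the 8 sensors, 4 of the 9 GTPases, 2 of the 3 genes of ISG15 conjugation and 1 of the 2 signalling genes. The remaining 45 of the 151 measured list genes did not pass the filter. Only genes with enough UMIs were tested, so these counts describe the genes tested and not the whole lists. Rsad2, Ddx60, Zbp1, Oasl1 and Irgm2, low in comparison cells, passed the filter through the interferon-positive cells. The share of 45.3% is therefore partly set by the filter.

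Among the GTPases, which attack the membranes around intracellular pathogens, 9 of 11 were higher and the median difference was 1.69 log2 units. Iigp1 was at 85.4, 75.5 and 22.03 CPM against 15.8, 19.2 and 8.01 CPM (2.24 ± 0.21, edgeR adjusted p = 4.2e-23). Irgm2 was at 18.6, 10.4 and 22.03 CPM against 2.95, 3.17 and 1.74 CPM (2.33 ± 0.56, edgeR adjusted p = 0.0054) and lost its call without either vehicle library (adjusted p = 1 and 0.87). Igtp, which overlaps Irgm2 on chromosome 11 so that reads in the overlap may be counted to either, was higher by 2.04 ± 0.39. The guanylate-binding proteins Gbp2, Gbp3, Gbp4, Gbp6 and Gbp7 and the GTPase Irgm1 were higher by 1.59 to 2.27 log2 units. Gbp3, Gbp4 and Gbp6 had 0 UMIs in the interferon-positive cells of EV 1, so their calls come from the vehicle libraries.
Irgm2 (chr11:58214891-58214944, plus strand): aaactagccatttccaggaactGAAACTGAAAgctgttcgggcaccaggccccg
Igtp (chr11:58199500-58199553, plus strand): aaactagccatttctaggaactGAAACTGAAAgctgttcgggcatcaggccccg
Gbp2 (chr3:142620582-142620635, plus strand): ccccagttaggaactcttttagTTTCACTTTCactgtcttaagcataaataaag
Gbp3 (chr3:142559977-142560030, plus strand): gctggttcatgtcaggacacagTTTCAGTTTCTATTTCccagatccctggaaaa
The stretches of Irgm2 and Igtp are shown because they differed in 2 of 54 bases, both outside the core.

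Of the antiviral effectors, 23 of 41 tested genes were higher and 0 lower, with a median of 0.97. Xaf1, a pro-apoptotic interferon target, was at 168, 176 and 374 CPM against 54.2, 58.2 and 43.5 CPM (1.80 ± 0.14, edgeR adjusted p = 2.3e-32). Rtp4 was at 104, 85.9 and 66.1 CPM against 24.9, 26.8 and 12.2 CPM (1.95 ± 0.19, edgeR adjusted p = 1.3e-20). Rsad2 (viperin) had the second largest estimate of all, 3.71 ± 0.71 (edgeR adjusted p = 4.9e-05), from 20 UMIs in 13 interferon-positive cells. At its comparison levels of 1.27, 1.30 and 0.348 CPM it was too low for the test. It entered through the interferon-positive cells, so its p-value is no independent support. Abundant members differed less. Ifitm3, which blocks virus entry at membranes, was at 2504, 2283 and 1388 CPM against 1496, 1384 and 655 CPM (0.81 ± 0.18, edgeR adjusted p = 0.0021), and Bst2 (tetherin), which holds budding virus at the cell surface, at 478, 398 and 198 CPM against 253, 258 and 117 CPM (0.84 ± 0.13, edgeR adjusted p = 3.1e-08). Eif2ak2 (PKR), the kinase that stops translation on double-stranded RNA, was higher by 1.10 ± 0.17. Ifi27 and Ly6e, at 626, 498 and 485 and at 328, 316 and 352 CPM in interferon-positive cells, did not pass the test (0.41 and 0.35 log2 units, edgeR adjusted p = 0.24 and 0.28).
Bst2 (chr8:71537571-71537624, minus strand): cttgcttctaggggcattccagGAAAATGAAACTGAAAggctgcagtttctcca

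The sensors had 8 of 18 tested genes higher, with a median of 0.65. Of these, Ifi203, Ifi204, Ifi207, Ifi211 and Mndal belong to the HIN-200 family, whose genes lie side by side on chromosome 1. Ifi203 was at 182, 181 and 132 CPM against 84.6, 82.2 and 98.6 CPM (1.15 ± 0.14, edgeR adjusted p = 1.3e-13). Mndal was at 66.8 and 51.1 against 28.1 and 27.2 CPM in the vehicle libraries (1.04 ± 0.22, edgeR adjusted p = 0.00047), and had 0 UMIs in the interferon-positive cells of EV 1. Annotated Mndal overlaps Ifi203, and their printed stretches were identical, so counts of these genes may be divided between them. Ifi202b, of the same family and on no list, was the most abundant, at 388, 455 and 749 CPM against 197, 216 and 311 CPM (1.10 ± 0.13, edgeR adjusted p = 2.4e-14).
Ifi203 (chr1:173942496-173942549, minus strand): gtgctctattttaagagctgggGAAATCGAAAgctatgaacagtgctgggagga
Mndal (chr1:173880192-173880245, minus strand): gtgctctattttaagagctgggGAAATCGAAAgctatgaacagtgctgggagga

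In the signalling list 2 of 16 tested genes passed. Of these, Stat2 was at 54.4, 56.9 and 44.1 CPM against 23.8, 21.8 and 19.9 CPM (1.36 ± 0.23, edgeR adjusted p = 8.3e-07). Irf9, its partner on the ISRE, was at 31.1, 31.4 and 88.1 CPM against 17.5, 19.4 and 16.7 CPM and missed the threshold (0.92 ± 0.27, edgeR adjusted p = 0.069). Irf7 was too low for the test, with 15, 11 and 0 UMIs in interferon-positive cells (23.3, 12.8 and 0 CPM against 2.74, 2.42 and 1.39 CPM). The receptor chains and kinases that lie upstream showed small estimates, 0.16 for Ifnar1, 0.14 for Ifnar2 and 0.15 for Jak1 (edgeR adjusted p = 0.95, 0.91 and 0.83).
Stat2 (chr10:128270254-128270307, plus strand): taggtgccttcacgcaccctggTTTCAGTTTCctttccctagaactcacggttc

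For ISG15 conjugation, 3 of 4 tested genes were higher, namely Usp18 (above), the ligase Herc6 (1.61 ± 0.26, edgeR adjusted p = 3.2e-07) and Trim25 (1.13 ± 0.23, edgeR adjusted p = 0.00023), with Uba7, the activating enzyme, too low for the test. In antigen presentation 3 of 16 tested genes were higher by edgeR and 0 by DESeq2, with a median of 0.53. These were the immunoproteasome subunit Psmb10 (1.15 ± 0.26), the proteasome activator Psme2 (0.61 ± 0.13) and the class I gene H2-T22 (0.83 ± 0.22), with edgeR adjusted p = 0.0028, 0.00089 and 0.03. The main class I genes H2-K1 and H2-D1 (0.41 and 0.32) and B2m (0.17) did not pass (edgeR adjusted p = 0.32, 0.39 and 0.85). B2m was at 1278, 1235 and 837 CPM against 1056, 1057 and 997 CPM.

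The genes of NF-kB and the acute phase, which answer to TNF, interleukin-1 and bacterial products, gave 0 calls among 25 tested genes in edgeR and 0 in DESeq2, with 3 at an unadjusted p under 0.05 (8.81% of all tested genes were) and a median of 0.11. With 0.655% of all tested genes called higher, 0 of 25 is near the background. Nfkbia, the NF-kB inhibitor that is itself a target, was at 400.7, 445 and 396 CPM against 363, 393 and 344 CPM (0.21 ± 0.14, edgeR adjusted p = 0.71). Cxcl1 was at 244, 185 and 154 CPM against 167, 165 and 365 CPM (0.27 ± 0.14, edgeR adjusted p = 0.54), with the opposite order in EV 1, and Il6 had 0 UMIs in interferon-positive cells. Among 7 negative regulators of signalling there were also 0 calls in edgeR and in DESeq2, and 0 at an unadjusted p under 0.05.

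**Figure D4:**
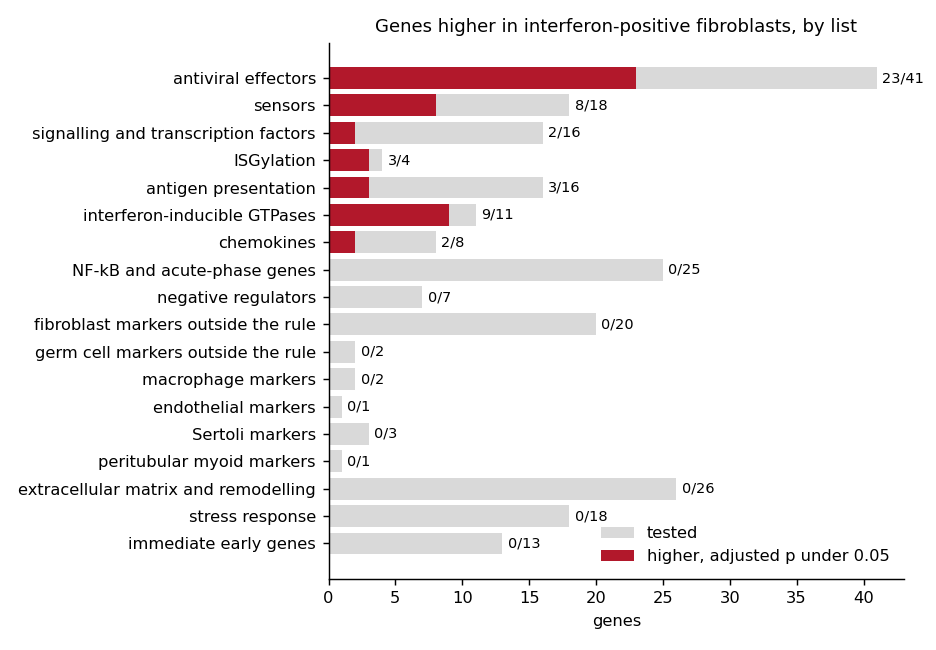
Number of genes in each list that were tested (grey) and that were higher in interferon-positive fibroblasts at an edgeR adjusted p under 0.05 (red), with both numbers beside each bar. Among the lists shown, calls are limited to the interferon and chemokine lists, and 48 of the 106 tested genes of the 6 interferon lists were called. Another 17 higher genes were on no list.

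The ligands themselves were hardly captured. None of 21 interferon genes passed the filter. Ifnb1 gave 2 UMIs in 2 cells of vehicle 2 and 2 UMIs in 2 cells of EV 1. In each library 1 of these cells was an interferon-positive fibroblast. Over the cells with Ifnb1, whether chosen or not, the highest count of the 4 genes was 56 UMIs in vehicle 2 and 19 in EV 1. In vehicle 1 no Ifnb1 was seen. Interferon-positive cells had 0 UMIs of every other interferon gene, of 643861, 861286 and 45402 UMIs, and at 3 counts this depth allows a level of up to 4.66, 3.48 and 66.1 CPM.

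The interferon-stimulated genes outside the rule differed between classes of cells by UMIs of the 4 genes on both sides of the threshold (2 UMIs just outside, 3 just inside). Summed over the interferon lists, the level in vehicle 1 was 8429 CPM (exact Poisson 95% interval 8347 to 8512) in cells with 0 UMIs, 9018 with 1, 9875 with 2, 11296 with 3 and 15477 (14839 to 16136) with 10 or more. Vehicle 2 gave 8308, 8878, 10143, 10706 and 15557 CPM. Ccl5 and Ifit2, which binds viral RNA with Ifit1 and Ifit3, had their highest CPM in the highest class, although in vehicle 1 it held 42 of 319 UMIs of Ccl5 and 14 of 126 of Ifit2. Ifit2 was at 13.3 and 15.5 CPM with 0 UMIs, at 8.34 and 3.08 with 3 UMIs (from 2 and 1 UMIs of Ifit2) and at 97.96 and 89.2 CPM with 10 or more. Ccl5 went from 87.6 and 148 CPM with 3 UMIs to 294 and 608 CPM with 10 or more. The classes use the genes of the rule and were read as a description.

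**Figure D5:**
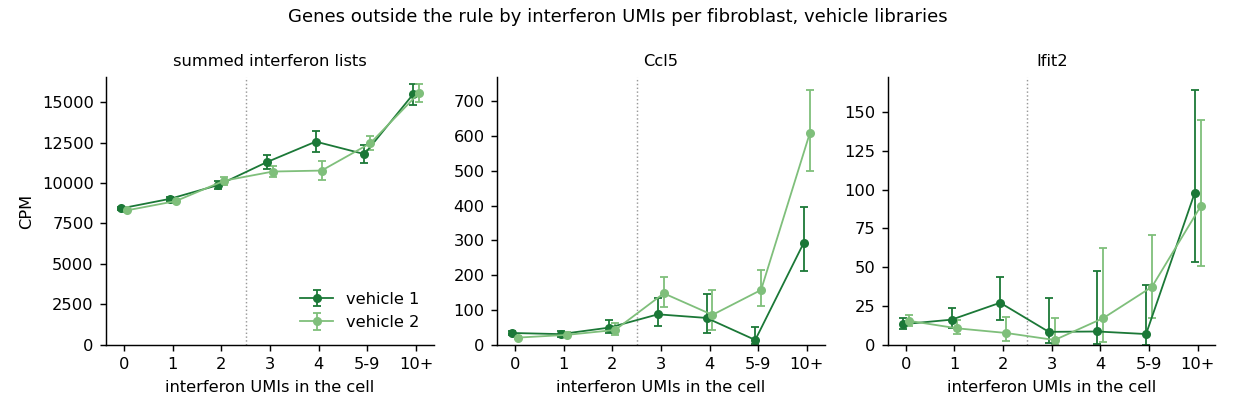
Level in CPM of the summed interferon lists, Ccl5 and Ifit2 in fibroblasts grouped by their UMIs of Ifit1, Ifit3, Isg15 and Cxcl10, for the vehicle libraries, with exact Poisson 95% intervals. The dotted line marks the threshold of 3 UMIs, and for Ccl5, Ifit2 and the summed lists each vehicle library has its own highest level at 10 or more UMIs.

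The subsets within the chosen cells were uneven as well. In the 22 and 39 vehicle cells that rested on Isg15 alone, Ccl5 was at 55.7 and 13.1 CPM and Ifit2 had 0 UMIs. In the 47 and 54 cells with 3 or 4 of the genes, Ccl5 was at 159 and 504 CPM and Ifit2 at 57.4 and 67.3 CPM. These subsets were named after their values were seen.

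Of the 67 higher genes, 30 lie in 12 groups of neighbours within 500 kb (GENCODE vM21, GRCm38). The largest is the HIN-200 group on chromosome 1 (173723427 to 173982744), with Ifi207, Ifi204, Mndal, Ifi211, Ifi203 and Ifi202b in 259 kb. Others are Gbp7, Gbp3 and Gbp2 on chromosome 3 (142530342 to 142638008), Parp14, Dtx3l and Parp9, enzymes of ADP-ribosylation and their partner, on chromosome 16 (35832874 to 35972605), and Oasl2 and Oasl1 on chromosome 5 (114896936 to 114937915). The promoter table held 52 of the 67 genes, and 25 of them (48.1%) had the ISRE core, against 3.67% of the 8148 tested genes in that table. Of the 13 lower genes in the table, 0 had it, and of 48 interferon list genes in the table that were tested and not called, 11 had it (22.9%). A match shows that the letters are present in the window, not that a factor was bound.

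Of the 17 higher genes on no list, 15 were in the promoter table and 3 held the core (20.0%), namely Apol9a, Apol9b and Mitd1. Apol9a and Apol9b, near copies on chromosome 15 whose stretches were identical, were higher by 1.75 ± 0.20 and 1.78 ± 0.23. The estimate for Wfdc18 rested on 2 cells. It was called at 221, 150 and 0 CPM against 114, 66.2 and 34.1 CPM (1.10 ± 0.14, edgeR adjusted p = 2.3e-12), but 1 cell held 106 of its 142 UMIs in vehicle 1 and another 75 of 129 in vehicle 2. Without those cells the levels were 56.4 and 63.4 CPM, no longer above the comparison cells in either library. Slpi, a secreted protease inhibitor, was at 592, 349 and 88.1 CPM against 338, 275 and 130 CPM (0.61 ± 0.13, edgeR adjusted p = 0.0011), with 1 cell holding 19.7% of its UMIs in vehicle 1.

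The 15 lower genes were on none of the lists. S100a8, a calcium-binding protein of inflamed tissue and myeloid cells, was at 7.77, 3.48 and 0 CPM against 42.0, 11.4 and 13.6 CPM (fell by 2.13 ± 0.44 log2 units, edgeR adjusted p = 0.00042). In the comparison cells of vehicle 1 a single cell held 67 of its 199 UMIs, and the call was lost without vehicle 1 (adjusted p = 1). Gbe1 (glycogen branching enzyme), Man1a (a Golgi mannosidase), Bnc2 (a zinc finger protein), Tafa1, Mdm4 (an inhibitor of p53), Sipa1l3 and Gpr137c lay between -1.18 and -0.68, and Hells, a chromatin remodeller of dividing cells, at -0.97. Many were long genes. The 15 genes had a median annotated length of 206 kb, with 10 above 100 kb (66.7%), whereas the median was 26.9 kb over the tested genes, with 15.2% above 100 kb, and 17.4 kb over the 67 higher genes. Malat1 and Neat1, nuclear RNAs used by the rule as an upper limit, took medians of 1.54%, 2.22% and 2.73% of UMIs in interferon-positive cells against 2.08%, 2.45% and 2.59%. Their part in the lower genes was not tested. All but S100a8 among the 10 lowest genes lost their call without vehicle 1 and also without vehicle 2. Their log2 differences then lay between -1.30 and -0.62 and between -2.18 and -0.51, and with comparison cells of matched depth 5 genes were lower. By DESeq2, without the library term or with thinned cells 0 genes were lower.

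Fibroblast genes outside the rule were present in the interferon-positive cells. Of 24 further fibroblast markers 20 passed the filter, and 0 were called in edgeR or DESeq2 (3 at an unadjusted p under 0.05), with a median of 0.03. Over all tested genes 902 (8.81%) were at an unadjusted p under 0.05, and with under 1% of genes called, 0 calls in a list this short is near the background. Vim was at 2039, 2451 and 2621 CPM against 1911, 2048 and 2627 CPM, Fn1 (fibronectin) at 988, 1169 and 881 CPM against 1178, 1192 and 1050 CPM, and the receptor Pdgfra at 124, 145 and 154 CPM against 165, 159 and 99.6 CPM. Lum had 0 UMIs in interferon-positive cells and Postn 2. The list of 26 tested matrix genes and that of 18 stress genes also gave 0 calls in either tool (4 and 3 at an unadjusted p under 0.05), again near the background.

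Markers of other cell types were summed in the same way. Summed over 14 macrophage markers the level was 46.6, 22.1 and 176 CPM in interferon-positive cells against 24.3, 27.4 and 61.0 CPM, the value of EV 1 coming from 8 UMIs, and Ptprc, Adgre1, C1qa, C1qb, C1qc, Tyrobp, Fcer1g and Itgam were at 0 in all interferon-positive cells. The 8 endothelial markers summed to 82.3, 59.2 and 132 CPM against 55.9, 57.0 and 54.0 CPM, nearly all from Egfl7, with Cdh5 and Cldn5 at 0. Of the 8 Sertoli markers Sox9, Rhox5 and Inhba carried the sum, 469, 513 and 639 CPM against 478, 481 and 504 CPM, and Wt1, Cldn11 and Dhh were at 0. Germ cell markers outside the rule were at 23.3, 31.3 and 0 CPM against 59.3, 46.0 and 19.9 CPM. The 6 Leydig markers were at 0, 3.48 and 22.03 CPM against 3.80, 3.35 and 2.09 CPM, and the 6 peritubular myoid markers at 35.7, 29.0 and 0 CPM against 26.6, 25.9 and 20.2 CPM. Of these 54 markers 9 passed the filter, and 0 of the 9 were called by edgeR or DESeq2. At an unadjusted p under 0.05 were 3, all higher in interferon-positive cells (1 macrophage, 1 endothelial and 1 Sertoli marker), so their absence is not shown.

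Between the arms, the interferon-stimulated genes were also lower in EV 1 when all fibroblasts within the limits were taken without regard to the 4 genes. The summed interferon lists were at 9022, 8950 and 6321 CPM, a ratio of EV 1 to the pooled vehicle libraries of 0.704 (exact conditional 95% interval 0.694 to 0.714). The 4 genes of the rule, as a description, were at 195, 192 and 58.7 CPM. Of the 67 higher genes, 51 had a ratio whose interval lay below 1, against 26.6% of the 10235 tested genes, and 4 one above 1, against 13.2%. The median ratio was 0.568 over the 67 and 0.925 over the tested genes. Ccl5 was at 41.2, 45.0 and 14.6 CPM (ratio 0.337, 0.246 to 0.452), Ifitm3 at 1684, 1583 and 719 CPM (0.441, 0.423 to 0.460) and Bst2 at 287, 284 and 119 CPM (0.417, 0.376 to 0.463). Some HIN-200 genes went the other way, with Ifi202b at 224, 250 and 320 CPM (1.34, 1.25 to 1.44), and Mndal and Ifi211 were among the 4 genes above 1. The comparison fibroblasts alone gave 4766, 4534 and 2983 CPM for the sum of the 67 genes (ratio 0.643, 0.628 to 0.658), so the level differed also in cells with no UMI of the 4 genes. The EV 1 library also differed in other values. Germ-positive barcodes were 54.6%, 56.4% and 4.86% of those passing, and the comparison fibroblasts had medians of 3399, 3755.5 and 2558.5 UMIs. Stress genes summed to 3747, 3951 and 5516 CPM, immediate early genes to 2466, 2505 and 3131 CPM, and macrophage markers to 26.7, 27.7 and 62.3 CPM. Mt1 and Mt2 took medians of 0.201%, 0.187% and 0.446% of UMIs in the comparison cells, and the limits kept 1852 of 2456, 1981 of 2619 and 1131 of 2644 fibroblasts. Their part in the lower levels was not tested. The 67 genes were called on interferon-positive cells of these libraries, 126 and 148 of them from vehicle and 10 from EV 1. That choice can favour genes with higher levels in the vehicle libraries. The arms differ by 1 library.

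Within the interferon-positive cells the summed interferon lists were at 12562, 12213 and 10550 CPM (ratio 0.853, exact conditional 95% interval 0.778 to 0.935; log2 ratio to the vehicle mean -0.23). The size of this gap depended on the scaling, with log2 ratios of -0.49 with TMM and -0.46 with RLE factors. Ccl7 was lower, at 528, 538 and 66.1 CPM (0.124, 0.0255 to 0.363), and Ccl5 higher, at 115, 238 and 352 CPM (1.90, 1.07 to 3.14), from 3 and 16 UMIs in EV 1. Of the 16 UMIs of Ccl5, 7 came from 1 cell, without which EV 1 was at 215 CPM. Of 2515 genes with at least 100 UMIs in interferon-positive cells, leaving out rule and mitochondrial genes, 1653 (65.7%) had an EV 1 level farther from both vehicle libraries than these were from each other. In EV 1, 1 UMI is worth 22.03 CPM. The intervals of 99 of these genes lay above 1 and of 102 below 1.

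Among the 5 highest ratios were those of Hk2 (hexokinase 2), Spata7, Mycbp2 and Errfi1, from 10 to 21 UMIs in EV 1. Hk2 was at 76.1, 99.9 and 352 CPM (3.93, 2.18 to 6.62) and Spata7 at 126, 124 and 463 CPM (3.70, 2.24 to 5.83), with both vehicle libraries well below EV 1. The 5 lowest were Wfdc18, Desi2, Emc6, Fbxl5 and Arpc5l, all with 0 UMIs in EV 1. Desi2 was at 109, 122 and 0 CPM and Emc6 at 109, 109 and 0 CPM, with intervals of the ratio that reach up to 0.706 and 0.754. The vehicle levels of Wfdc18 without its highest cells lay below the 66.1 CPM that 3 counts are worth in EV 1. These genes were chosen for their extreme ratios, so the values are a description. With 10 cells behind them, these values describe 1 library.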

How the data were processed

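The authors ran Cell Ranger 7.0.1 on 10x libraries, with mm10 and GENCODE vM23. Their deposited matrices hold UMI counts, not normalized, of 32285 genes in each called barcode. Cells were chosen by the limits given above. The members, gene lists and tests were chosen with earlier results of these data known. UMIs were summed per library and population and tested with edgeR 4.0.16 (TMM, filterByExpr, glmQLFTest, terms for library and population, Benjamini-Hochberg over genes outside the rule, R 4.3.3). The 24 rule genes and 13 mitochondrial genes were fitted and not tested. The method was tested on simulated data. CPM are UMIs per 1000000 UMIs of a population. Named genes are those of the lists, the 10 highest and 10 lowest called genes with 1 direction in all libraries and at least 50 UMIs, and the 5 highest and lowest EV ratios. Other genes were named after their values were seen. Doublets were scored with Scrublet (scanpy 1.11.5). In an alternative the 633, 697 and 198 barcodes with the highest scores were removed. These numbers were set by library size, at 0.8% per 1000 barcodes, and not by a Scrublet threshold. Of the interferon-positive cells 0 were removed. Vehicle libraries are replicates by their labels. The p-values rest on a spread between libraries that edgeR estimated jointly over many genes. They can understate how far a single gene varied. Ccl5 had an SE of 0.16, while its log2 difference was 3.88 without vehicle 1 and 2.29 without vehicle 2. Promoter sequences are from RefSeq (GRCm38.p6), matched by symbol. Some genes that the named-gene rule covers are not reported here.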

Additional observations from a re-analysis of the deposited data

Results flagged for a closer look

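For 14 of the 82 called genes both vehicle libraries moved one way between interferon-positive and comparison fibroblasts and EV 1 the other. The difference between the arms was not tested, and 8 of the 14 had 0 UMIs in the 10 interferon-positive cells of EV 1. For 6 of them fewer than 1 UMI would be found there at the level of the comparison cells. Higher in the vehicle libraries were, by the fitted log2 difference over all 3 libraries, the guanylate-binding proteins Gbp3 (2.27), Gbp4 (1.69) and Gbp6 (1.64), Sp140 (1.56), AW112010 (1.51), Dtx3l (1.41), Wfdc18 (1.10), Mndal (1.04), the chemokine Ccl7 (0.79), Ifi204 (0.70), Trim30d (0.63) and Slpi (0.61). Lower in the vehicle libraries were Runx2 (-0.66), a transcription factor of bone-forming cells, and Atxn1 (-0.63), with 5 and 8 UMIs in EV 1.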

How the results depend on the processing

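The 67 higher and 15 lower genes became 68 and 20 with RLE size factors, 67 and 13 with no filter on low counts or without doublets, and 65 and 13 with Cxcl10 out of the rule. DESeq2 called 26 higher and 0 lower genes (176 at an unadjusted p under 0.05), and edgeR without a library term 29 and 0 (641). A minimum of 2 UMIs gave 407 and 203, a minimum of 5 gave 59 and 6, comparison cells of matched depth gave 53 and 5, and thinning to 1000 UMIs gave 13 and 0 (269). Leaving out a library gave 19 to 168 higher and 0 to 43 lower genes. The 48 higher genes of the interferon lists became 22 in DESeq2, 26 without the library term, 10 when thinned, and 15 to 57 when a library was left out. In each setting every tested gene of the 67 kept a positive difference, except Gm41724 when thinned (-0.14). The settings reuse the libraries on which the genes were called, so the kept direction is no independent support. The EV 1 share stood 6.25 points below the vehicle mean, and the difference was -10.2 at a minimum of 2 UMIs, -3.02 at 5, -1.35 when thinned, -1.30 of all passing barcodes and -5.01 of all fibroblasts by the rule (the last chosen after seeing the data). The log2 ratio of the interferon lists within interferon-positive cells, -0.23, was -0.49 with TMM, -0.46 with RLE factors and -0.37 at a minimum of 2 UMIs. For changes between settings beyond fewer cells or genes the cause was not tested. No paired analysis was possible because the EV arm has 1 library with counts, so the arms share 1 replicate number. In the interferon-positive cells of EV 1, 3 UMIs correspond to 66.1 CPM, which limits what could be detected there.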
